A study of Mus musculus with 6 samples.

Results

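The folding machinery of the sarcomere was followed here through 10 genes: the myosin chaperones *Smyd1*, *Unc45a*, *Unc45b* and *Hsp90aa1*, and the small heat shock protein genes *Cryab*, *Hspb1*, *Hspb2*, *Hspb3*, *Hspb7* and *Hspb8*. They were chosen by gene symbol, and each matched 1 row of the count table, giving 10 of 46078 genes listed. All 10 had enough counts to be tested. RNA came from C2C12 cells, an immortalized mouse myoblast line that withdraws from the cell cycle and fuses into myotubes when serum is removed. One group carried a CRISPR-Cas9 knockout of *Hnrnpa2b1* (KO), made by transfection of a Cas9 plasmid with 1 guide and puromycin selection, and the other was wild type at *Hnrnpa2b1* (WT). Each genotype had 3 libraries (KO1, KO2 and KO3; WT1, WT2 and WT3), and all cells were differentiated for 2 days. According to the methods, cloning rings were used to pick 3 independent clones as KO and WT, but the clone behind each library is not given in the sources used here, so how far differences between clones are part of the spread between libraries is not known.

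Myosin motor domains do not fold unaided. UNC45 proteins bind the myosin head through their UCS domain and bring in HSP90, with UNC45B serving striated muscle and UNC45A serving most other cells, whereas SMYD1 is a muscle-specific lysine methyltransferase that is needed for thick filament assembly. Small heat shock proteins hold unfolded clients in a soluble state and bind the muscle cytoskeleton: CRYAB binds desmin and titin, HSPB1 binds actin, HSPB7 binds filamin C, HSPB2 forms complexes with HSPB3, and HSPB8 acts with BAG3 to send damaged filamin for autophagy.

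Reads assigned to genes numbered 36417517 to 40558740 per KO library and 33605258 to 39134651 per WT library. The targeted gene itself, *Hnrnpa2b1*, stood at 159, 195 and 249 CPM (counts scaled to the size of each library) in KO1, KO2 and KO3 and at 225, 229 and 252 CPM in the WT libraries, with a log2 fold change of −0.23 ± 0.18 (SE, edgeR quasi-likelihood test, Benjamini-Hochberg adjusted p = 0.381). TPM is a level corrected for transcript length and scaled to the same total in each library. *Hnrnpa2b1* stood at 29.5, 38.0 and 59.9 TPM in KO1 to KO3 and at 56.6, 57.4 and 58.0 TPM in WT1 to WT3. KO1 and KO2 were below all WT libraries and KO3 was above them. The difference in log2(TPM + 1) was −0.49 ± 0.24 (SE, limma adjusted p = 0.174). A small edit made by Cas9 need not lower the transcript, so these levels do not check the genotype labels. KO1 stood apart from KO2 and KO3 in muscle transcripts: the summed TPM (a level corrected for transcript length and scaled to the same total in each library) of 8 sarcomeric myosin heavy chain genes was 557 in KO1, 159 in KO2, 229 in KO3 and 693, 749 and 840 in the WT libraries. Values without KO1 are therefore given beside the results it moves. Since muscle transcripts set KO1 apart, calls of muscle genes without it are descriptions and no separate support. The defining muscle markers were present in all 6 libraries, with summed CPM of 6953 to 17283 in KO and 10501 to 13174 in WT over 10 markers. Of the 10 markers edgeR called 3 with all libraries (22.7% of all genes tested) and 8 without KO1 (30.6%). Of the other markers looked at, *Adipoq*, *Plin1*, *Cidec* and *Fabp4* (adipocytes) and *Ptprc* and *Adgre1* (immune cells) were at or near 0. From the same lists *Pparg* was at 8.59 to 16.1 CPM and *Cd68* at 1.86 to 3.41 CPM, with overlap, and *Csf1r*, below the filter of edgeR, was at 0.147 to 0.196 CPM in KO and 0 to 0.0578 CPM in WT. The summed CPM of 4 endothelial markers was at most 2.05 in any library.

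The promoters below are shown because they hold the sequence elements most often discussed for these genes, the heat shock element and the elements of muscle promoters. RefSeq start sites on GRCm38.p6 were found for 7 of the 10 genes, each with 250 bases before and 50 bases after the start. *Cryab*, *Hspb2* and *Hsp90aa1* were without an entry. Capitals mark heat shock element matches (GAANNTTC) in *Hspb1*, *Hspb8* and *Hspb3*, also the MEF2 consensus in *Hspb3*, and the TATA sequence, read from the other strand, in *Smyd1*.
*Hspb1*, chr5:135887669-135887968, plus strand: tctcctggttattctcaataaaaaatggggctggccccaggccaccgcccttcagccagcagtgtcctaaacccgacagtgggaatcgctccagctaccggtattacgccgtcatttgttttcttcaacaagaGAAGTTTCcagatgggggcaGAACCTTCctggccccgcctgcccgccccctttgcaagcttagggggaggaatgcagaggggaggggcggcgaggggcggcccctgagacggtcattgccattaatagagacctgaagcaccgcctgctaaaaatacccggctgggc
*Hspb8*, chr5:116422815-116423114, minus strand: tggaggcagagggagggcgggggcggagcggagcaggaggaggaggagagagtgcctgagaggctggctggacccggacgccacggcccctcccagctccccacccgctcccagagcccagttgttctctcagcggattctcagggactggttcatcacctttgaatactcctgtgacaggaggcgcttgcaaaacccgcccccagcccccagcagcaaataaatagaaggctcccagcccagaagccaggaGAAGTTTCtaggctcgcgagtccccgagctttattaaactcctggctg
*Hspb3*, chr13:113663627-113663926, minus strand: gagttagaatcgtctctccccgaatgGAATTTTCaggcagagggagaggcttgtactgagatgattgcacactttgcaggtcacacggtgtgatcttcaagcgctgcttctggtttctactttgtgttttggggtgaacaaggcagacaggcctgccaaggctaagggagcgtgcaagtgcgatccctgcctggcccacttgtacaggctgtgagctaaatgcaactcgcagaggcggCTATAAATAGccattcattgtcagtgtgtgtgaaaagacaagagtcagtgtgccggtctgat
*Smyd1*, chr6:71262232-71262531, minus strand: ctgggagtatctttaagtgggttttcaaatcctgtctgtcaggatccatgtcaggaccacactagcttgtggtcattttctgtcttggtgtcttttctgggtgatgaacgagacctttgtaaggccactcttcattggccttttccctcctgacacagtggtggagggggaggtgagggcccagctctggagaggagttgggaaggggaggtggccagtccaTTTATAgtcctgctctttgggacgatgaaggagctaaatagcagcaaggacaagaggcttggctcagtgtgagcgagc

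The heat shock element GAANNTTC, searched on both strands, was in 3 of the 7 promoters and in 7.86% of the 32851 promoters of the same length in the table. *Hspb1* held it at 2 places, at −117 to −110 and −97 to −90 from the start site. *Hspb8* held it at 2 to 9 and *Hspb3* at −224 to −217. The form TTCNNGAA was in 0 of the 7, against 8.52% of all promoters. The MEF2 consensus, present in 3.19% of promoters, was found in *Hspb3* alone of the 7, at −12 to −3, where it overlaps a TATAAA match. TATAAA was in 2 of the 7 (*Smyd1* and *Hspb3*; 13.6% of all promoters) and CCAAT in 1 (*Smyd1*; 37.4%). The E-box CANNTG was in 5 of the 7 against 72.3%, the muscle E-box CAGCTG in 0 against 16.3%, and the CArG box in 0 against 1.63%. These are matches of letters and not tested sites.

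In the KO cells 3 muscle chaperone transcripts fell and 1 rose. *Smyd1* fell 2.90-fold, *Unc45b* 1.90-fold and *Hspb2* 3.39-fold, whereas *Hsp90aa1* rose 1.95-fold (edgeR quasi-likelihood test, adjusted p under 0.05 for each). Of the 10 genes, 4 were called (3 lower, 1 higher), against 22.7% of the 14828 genes tested (10.6% lower and 12.1% higher). The median log2 fold change over the 10 was −0.79, and over all genes tested 0.03. At an unadjusted p under 0.05, 9 of the 10 differed, against 39.0% of all genes tested. In 7 of the 10 the KO and WT libraries did not overlap in CPM, where 44.3% of all tested genes did not overlap: the KO values were all lower in 5 (21.6% of all genes) and all higher in 2 (22.7%). In TPM 6 of the 10 did not overlap, against 40.6% of its genes. The count of calls depended on the test. DESeq2 called 7 (6 lower; 23.9% of the genes it gave an adjusted p) and limma on log2(TPM + 1) called 6 (20.2% of its genes): 5 lower (11.8%) and 1 higher (8.46%). Without KO1, edgeR called 8 of the 10, where it called 30.6% of all genes, and without WT1 or WT3 it called 2, with 933 and 1288 calls over all genes against 3361 with all libraries.

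**Figure D1:**
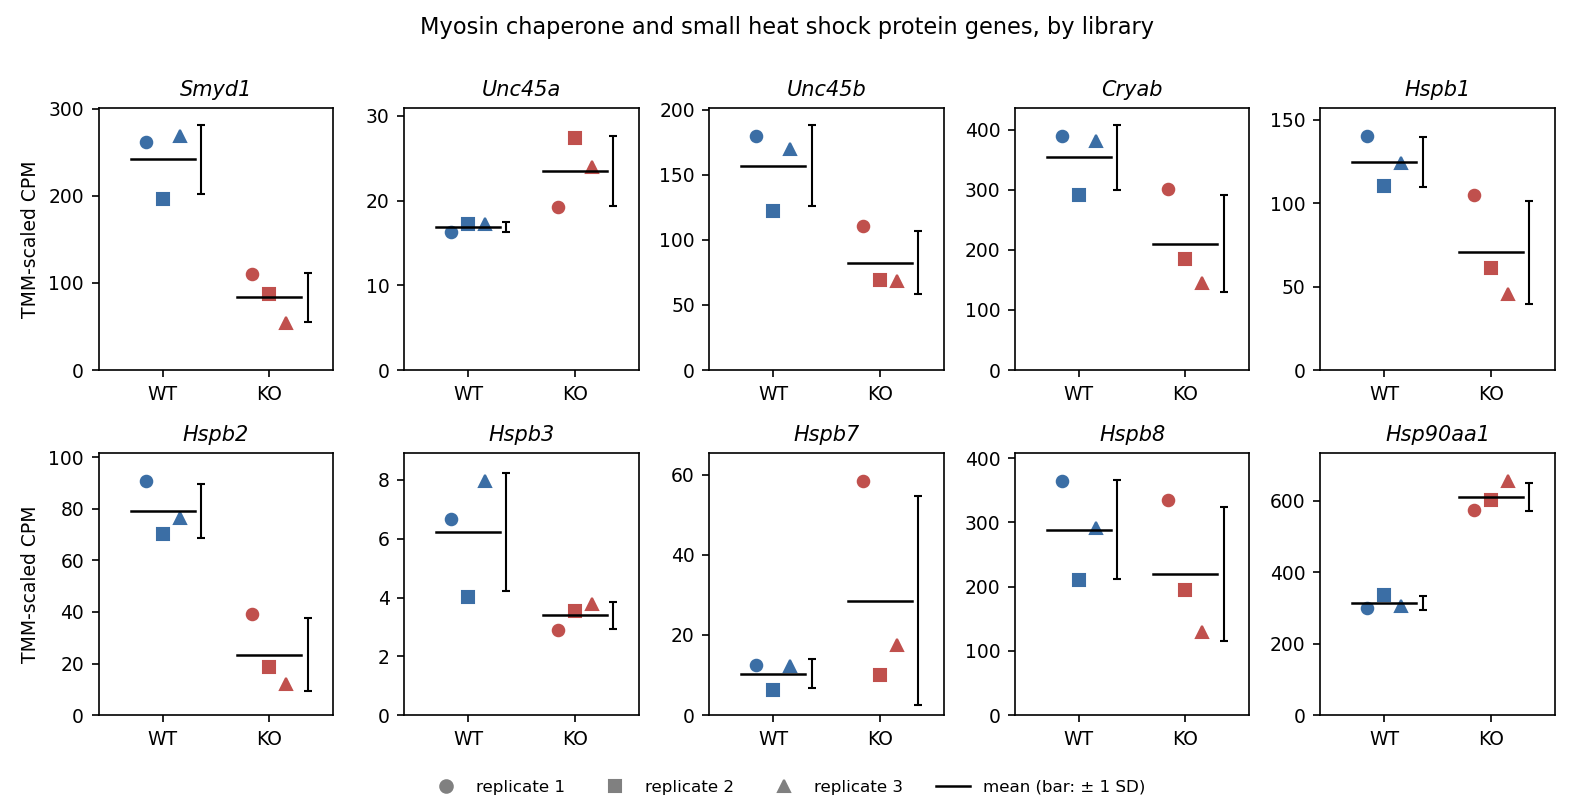
TMM-scaled CPM of each of the 10 genes (vertical axes from 0) in the 3 WT (blue) and 3 KO (red) libraries; horizontal lines are means and bars ± 1 SD. *Smyd1* lies at 53.5 to 110 CPM in KO and 197 to 268 CPM in WT, *Hsp90aa1* at 574 to 654 CPM in KO and 300 to 336 CPM in WT, and the high *Hspb7* value of 58.3 CPM is KO1.

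*Smyd1* fell. It stood at 110, 86.8 and 53.5 CPM in KO1, KO2 and KO3 and at 262, 197 and 268 CPM in WT1, WT2 and WT3. All KO libraries were less than the lowest WT library, and KO1 was the highest of the KO libraries. The log2 fold change was −1.54 ± 0.26 (SE, edgeR adjusted p = 0.00790), and in log2(TPM + 1) the difference was −1.52 ± 0.20 (limma adjusted p = 0.00219). The call held with each of the 6 libraries left out, at −1.79 to −1.30, with the highest adjusted p (0.0424, edgeR) without WT1. *Smyd1* (chromosome 6, 71213940 to 71322233, minus strand, GRCm38; 9 exons in the principal transcript, 477 codons) overlaps *Krcc1*, *Gm1070*, *Mir8112* and *Gm44321* on the other strand. This overlap is between whole gene spans, and overlap between exons was not examined. The use of strand in the counting is not given in the sources used here. Where exons overlap, reads of these genes could not be told apart from *Smyd1*.

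Of the UNC45 pair, the striated muscle form fell and the general form did not pass the test. *Unc45b* stood at 110, 69.0 and 68.2 CPM in KO1 to KO3 and at 180, 122 and 170 CPM in WT1 to WT3. The genotypes did not overlap, though KO1 and WT2 lay close together. Its log2 fold change was −0.93 ± 0.23 (SE, edgeR adjusted p = 0.0275). The call was lost without KO2 (adjusted p = 0.0685, edgeR), KO3 (0.0829), WT1 (0.110) or WT3 (0.0871), where the log2 fold changes lay between −0.90 and −0.81, and held without KO1 (−1.20) or WT2 (−1.09). *Unc45b* lies on chromosome 11 (82910550 to 82943403, plus strand), where *Unc45bos* and *Slfn5os* overlap it on the other strand.

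*Unc45a*, the form of non-muscle cells, was low in both genotypes. Its levels were 19.2, 27.3 and 24.0 CPM in KO and 16.3, 17.2 and 17.2 CPM in WT. The KO libraries were all above the WT libraries in CPM but overlapped them in TPM, where KO1 (4.06 TPM) was less than WT2 and WT3. Its log2 fold change of 0.48 ± 0.16 missed the threshold (edgeR adjusted p = 0.0702) and passed it only without KO1 (0.60, adjusted p = 0.0192). As a ratio of TPM within each library, *Unc45b* over *Unc45a* was 5.51, 2.46 and 2.77 in KO and 11.9, 7.09 and 9.10 in WT. The muscle form outnumbered the general form in every library, and less so in every KO library than in any WT library (exact permutation test, two-sided p = 0.1, the smallest that 3 against 3 allows).

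*Hsp90aa1*, the inducible cytosolic HSP90 and the partner that UNC45 brings to myosin, rose. It stood at 574, 603 and 654 CPM in KO and 300, 336 and 304 CPM in WT. The lowest KO library was well above the highest WT library, and KO1 lay close to KO2 and KO3. The log2 fold change was 0.96 ± 0.14 (SE, edgeR adjusted p = 0.00519), the difference in log2(TPM + 1) was 0.99 ± 0.18 (limma adjusted p = 0.00729), and the call held without any 1 library at 0.91 to 1.0. *Hsp90aa1* lies on chromosome 12 (110690605 to 110702728, minus strand), whose 483 tested genes had a median log2 fold change of 0.39. Of the 68 tested genes within 5 Mb on either side, itself left out, 20 were called higher and 1 lower, with a median of 0.30. Over all genes tested 12.1% were called higher and 10.6% lower. With each chromosome's median removed, *Hsp90aa1* stood at 0.57 and stayed past the threshold (edgeR adjusted p = 0.0280). Processed copies with near-identical sequence, *Gm12346* (99.4% identity over 2208 bases) and *Gm5844* (98.5% over 2202), were counted at 1.64 to 4.05 and 0.95 to 2.17 CPM, so reads could have been split with them.

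**Figure D2:**
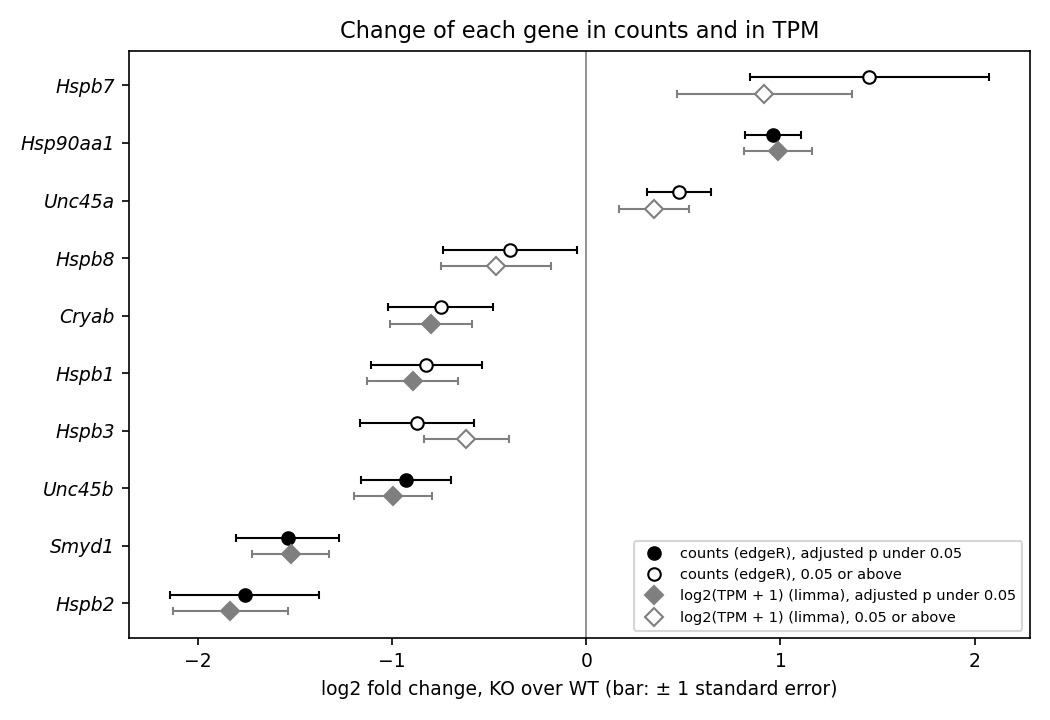
Log2 fold change of KO over WT for each gene, from counts (circles, edgeR) and from TPM (diamonds, limma on log2(TPM + 1)), with bars of ± 1 standard error; filled symbols passed the adjusted p threshold of 0.05. *Hspb2*, *Smyd1*, *Unc45b* and *Hsp90aa1* are filled in both, *Cryab* and *Hspb1* in TPM alone.

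*Hsp90ab1*, the constitutive paralog, did not pass the test (log2 fold change 0.22 ± 0.20, edgeR adjusted p = 0.466), and was the more abundant of the pair in every library. The ratio of *Hsp90aa1* to *Hsp90ab1* TPM was 0.183, 0.189 and 0.238 in KO and 0.104, 0.135 and 0.116 in WT. Every KO library had a higher ratio than any WT library (exact permutation p = 0.1). The ratio of *Hsp90aa1* to *Unc45b* TPM was 6.09, 9.77 and 11.1 in KO and 1.79, 2.93 and 1.85 in WT. All KO libraries again had the higher ratio (exact permutation p = 0.1).

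The sarcomeric myosin heavy chains are the clients of these chaperones. Of the 8 heavy chain genes 1 passed in edgeR, beside 22.7% of all genes tested: *Myh7b*, a slow-type heavy chain, with a log2 fold change of −2.21 ± 0.26 (edgeR adjusted p = 0.0026), at 23.5, 14.6 and 19.7 CPM in KO and 71.8, 73.3 and 121 CPM in WT. The other 7 had log2 fold changes below 0 with adjusted p of 0.0562 or more, and without KO1 edgeR called 7 of the 8 (30.6% of all genes). KO1 was set apart by the summed TPM of these same 8 genes, so the calls without it are no separate support. DESeq2 called 2 of the 8 (23.9% of all genes), *Myh7b* and the embryonic *Myh3* (adjusted p = 0.0198). In TPM, limma called 5 lower (11.8% of its genes): *Myh7b*, *Myh3*, *Myh6*, *Myh7* and *Myh8*. The list's median was −1.53. Per 100 TPM of heavy chain, *Smyd1* stood at 3.65, 10.7 and 5.49 TPM in KO and 7.84, 5.56 and 6.14 TPM in WT. The genotypes overlapped, with means of 6.62 ± 3.66 and 6.51 ± 1.19 (SD, n = 3; exact permutation p = 0.8). *Unc45b* stood at 4.01, 9.62 and 7.68 TPM per 100 TPM of heavy chain in KO and at 6.46, 3.96 and 4.64 in WT, again with overlap (exact permutation p = 0.3). The overlap came from KO1: KO2 and KO3 were above all WT libraries. *Hsp90aa1* gave 24.5, 94.0 and 85.3 in KO against 11.6, 11.6 and 8.59 in WT, without overlap (exact permutation p = 0.1). In bulk RNA, fewer myotubes and less RNA of a gene per myotube cannot be told apart.

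**Figure D3:**
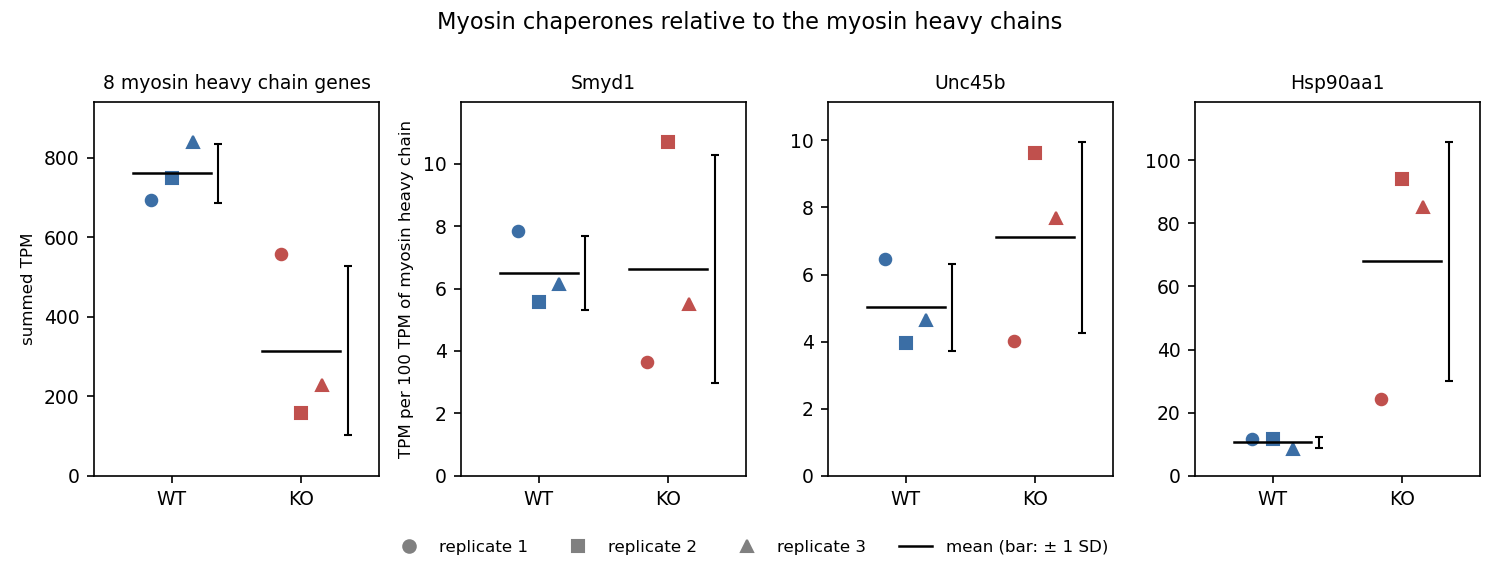
Summed TPM of the 8 sarcomeric myosin heavy chain genes (left) and TPM of *Smyd1*, *Unc45b* and *Hsp90aa1* per 100 TPM of heavy chain, by library, with means and ± 1 SD. The heavy chain sum is 159 to 557 in KO and 693 to 840 in WT; relative to it *Smyd1* and *Unc45b* overlap between genotypes and *Hsp90aa1* does not.

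Among the small heat shock protein genes, *Hspb2* fell. *Hspb2*, which encodes a partner of the myotonic dystrophy kinase, stood at 39.2, 18.8 and 12.2 CPM in KO1 to KO3 and at 90.6, 70.4 and 76.5 CPM in WT1 to WT3. The highest KO library, KO1, was below the lowest WT library. The log2 fold change was −1.76 ± 0.38 (SE, edgeR adjusted p = 0.0175) and the difference in log2(TPM + 1) was −1.83 ± 0.29 (limma adjusted p = 0.00499). It was −2.36 without KO1, and the call was lost without WT1 (adjusted p = 0.0735, edgeR) or WT3 (0.0547). Within 5 Mb on either side of *Hspb2* were 73 other tested genes, with a median log2 fold change of −0.23. Of these 14 were called lower and 2 higher, beside 10.6% and 12.1% of all genes tested. With each chromosome's median removed, *Hspb2* stood at −1.57 (edgeR adjusted p = 0.0264).

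*Cryab*, which encodes αB-crystallin, is the head-to-head neighbour of *Hspb2* on chromosome 9, and its difference was smaller. It stood at 301, 185 and 145 CPM in KO and at 389, 291 and 381 CPM in WT. KO1 was above WT2, and KO2 and KO3 were below all WT libraries. The log2 fold change of −0.75 ± 0.27 did not pass (edgeR adjusted p = 0.0821), but did in DESeq2 (adjusted p = 0.0297), in TPM (−0.80 ± 0.21, limma adjusted p = 0.0315), without the filter on low counts (edgeR adjusted p = 0.00218) and without KO1 (−1.11, edgeR adjusted p = 0.00506). The call in TPM was lost without KO2 (limma adjusted p = 0.0804), KO3 (0.0859), WT1 (0.146) or WT3 (0.0963), and with chromosome medians removed the counts gave −0.56 (edgeR adjusted p = 0.171). The ratio of *Hspb2* to *Cryab* TPM was 0.183, 0.141 and 0.120 in KO and 0.321, 0.334 and 0.282 in WT. The KO libraries all had the lower ratio (exact permutation p = 0.1). In the deposited coordinates *Hspb2* (50751072 to 50752354, minus strand) ends 403 bases before *Cryab* begins (50752758 to 50756633, plus strand). In the GENCODE vM21 annotation a longer span of *Cryab* overlaps *Hspb2* by 1030 bases. Reads in any exons shared there cannot be assigned without strand.

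*Hspb1*, the actin-binding small heat shock protein gene whose promoter is printed above, had levels of 105, 60.9 and 45.5 CPM in KO and 140, 110 and 124 CPM in WT. KO1 was just below WT2, and the genotypes did not overlap. Its log2 fold change of −0.82 ± 0.29 missed the threshold (edgeR adjusted p = 0.0725). It passed in DESeq2 (adjusted p = 0.0231), in TPM (−0.89 ± 0.23, limma adjusted p = 0.0299) and without the filter on low counts (edgeR adjusted p = 0.000205). In edgeR it also passed with the chromosome medians removed (−0.98, adjusted p = 0.0454), with the replicate number as a block (−0.90, adjusted p = 0.0391) and without KO1 (−1.23, adjusted p = 0.00227). The call in TPM held without KO1 and was lost without KO2 (limma adjusted p = 0.0747), KO3 (0.0813), WT1 (0.139), WT2 (0.0577) or WT3 (0.0789). A processed copy, *Hsp25-ps1* (99.4% identity), reached at most 0.189 CPM.

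*Hspb8*, the partner of BAG3, did not pass, with 334, 195 and 130 CPM in KO and 364, 211 and 292 CPM in WT. KO1 lay among the WT libraries, and KO2 and KO3 were below them. The log2 fold change was −0.39 ± 0.35 (edgeR adjusted p = 0.432), and −0.84 without KO1 (edgeR adjusted p = 0.0447). *Bag3* itself had a log2 fold change of 0.10 ± 0.14 (edgeR adjusted p = 0.641), and the ratio of *Hspb8* to *Bag3* TPM was 7.93, 4.98 and 3.49 in KO and 8.38, 6.11 and 8.81 in WT (exact permutation p = 0.2). KO1 alone overlapped the WT libraries, and KO2 and KO3 were below all of them.

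*Hspb3* was the least abundant of the 10 in CPM, at 2.88, 3.53 and 3.78 in KO and 6.68, 4.02 and 7.95 in WT. It was also the only gene with a negative fold change in which KO1 was the lowest KO library. Its log2 fold change of −0.87 ± 0.29 missed the threshold in edgeR (adjusted p = 0.0674) and passed in DESeq2 (adjusted p = 0.0213), in edgeR without the filter on low counts (0.0255) and without WT2 (−1.11, edgeR adjusted p = 0.0360). In TPM the genotypes overlapped, KO3 (3.73) being above WT2 (3.52). Of the 29 tested genes within 5 Mb of *Hspb3* on either side, itself left out, 11 were called lower and 1 higher, with a median log2 fold change of −0.46. Over all genes tested 10.6% were called lower and 12.1% higher. Its fold change and that of its partner *Hspb2* were not tested against each other.

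*Hspb7*, the filamin C partner, had the largest standard error of the log2 fold change among the 10 genes. It stood at 58.3, 9.92 and 17.5 CPM in KO and at 12.6, 6.19 and 12.4 CPM in WT. KO1 was far above all other libraries, whereas KO2 lay among them. The log2 fold change of 1.46 ± 0.61 did not pass (edgeR adjusted p = 0.121). It was 0.39 without KO1 (adjusted p = 0.415) and 1.86 without KO2 (edgeR adjusted p = 0.0459), and passed without the filter on low counts (edgeR adjusted p = 1.92e-06). In TPM the difference was 0.92 ± 0.45 (limma adjusted p = 0.177). That difference passed with the replicate number as a block (limma adjusted p = 0.0288) or without KO2 (0.0367). KO1 was also the library with the highest sum over the 5 bone and cartilage markers (5.29 CPM, against 0.24 to 0.43 CPM in WT), nearly all of it from *Bglap* (5.04 CPM), while *Ibsp*, *Sp7*, *Acan* and *Col2a1* were at or near 0, and the part of this in the *Hspb7* value was not tested.

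**Figure D4:**
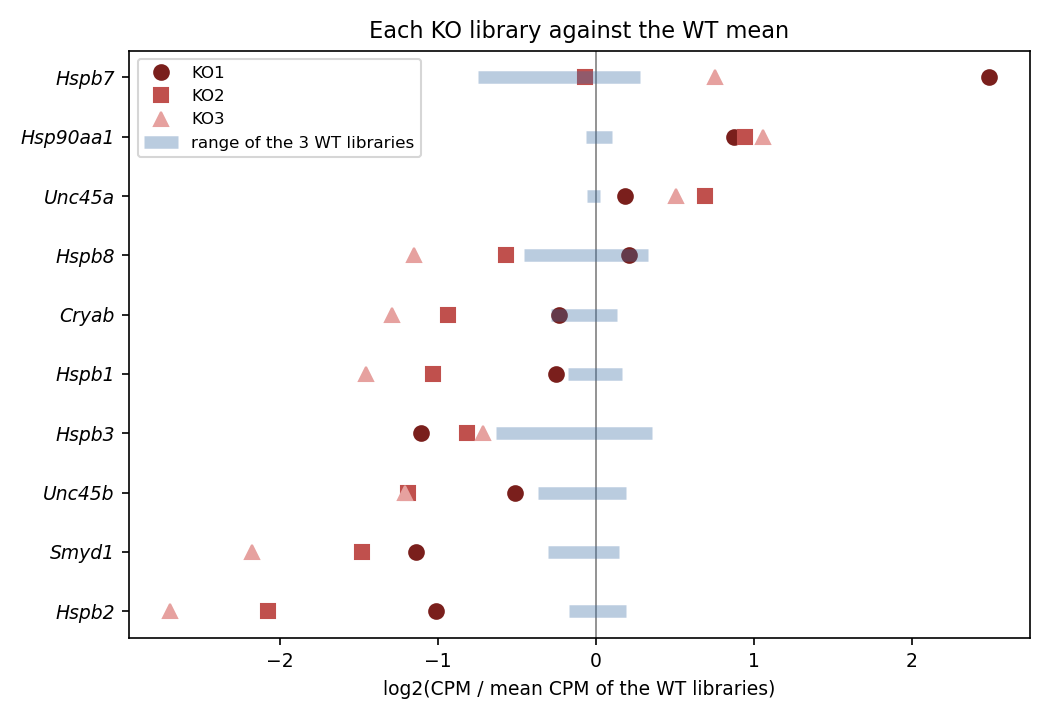
Log2 ratio of each KO library's CPM to the mean CPM of the WT libraries, per gene; blue bands are the range of the 3 WT libraries. KO1 (dark circles) is the KO library nearest the WT mean in 6 of the 7 genes with a negative fold change, *Hspb3* being the exception, and lies far to the right for *Hspb7*.

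KO1 was the KO library nearest to the WT mean in 6 of the 7 genes with a negative fold change. Its log2 ratio to the WT mean was −1.14 for *Smyd1*, −1.01 for *Hspb2*, −0.51 for *Unc45b*, −0.25 for *Hspb1*, −0.23 for *Cryab* and 0.21 for *Hspb8*. In KO3 the same ratios were −2.18, −2.69, −1.21, −1.45, −1.29 and −1.15. Each of the 6 genes was lower in KO3 than in KO1. KO1 was also the KO library with the most myosin heavy chain, and the part of that in the ratios was not tested.

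The summed TPM of the 6 small heat shock protein genes was 388, 236 and 210 in KO and 557, 409 and 462 in WT, without overlap (278.1 ± 96.4 against 476.1 ± 74.8; SD, n = 3; exact permutation p = 0.1). *Cryab* made up 39.8% to 44.5% of it in KO and 40.2% to 43.5% in WT, with overlap. *Hspb2* made up 5.36% to 7.27% in KO and 12.3% to 14.1% in WT. *Hspb8* made up 26.4% to 29.6% in KO and 20.2% to 24.9% in WT, and *Hspb7* 0.98% to 3.31% in KO and 0.37% to 0.61% in WT. *Hspb1* made up 19.6% to 19.7% in KO and 20.05% to 22.37% in WT. The shares of *Hspb1*, *Hspb2*, *Hspb8* and *Hspb7* did not overlap between genotypes (exact permutation p = 0.1 for each). Shares of 1 sum are not independent, since a fall in 1 raises the others.

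**Figure D5:**
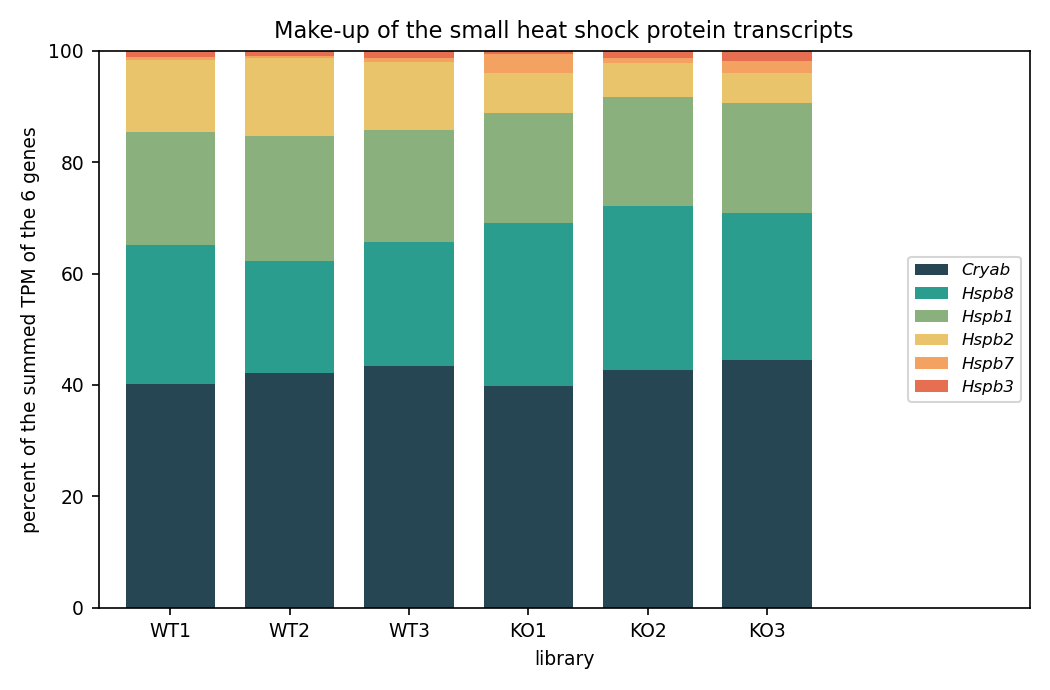
Share of each gene in the summed TPM of the 6 small heat shock protein genes, stacked to 100%, for each library. *Cryab* holds 39.8% to 44.5% in all 6 libraries, and the *Hspb2* band is 5.36% to 7.27% in KO and 12.3% to 14.1% in WT.

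Ordered by TPM, *Cryab* led in WT (199.1 ± 25.7; SD, n = 3), followed by *Hspb8* (107.9 ± 28.3), *Hspb1* (99.3 ± 12.5), *Hsp90aa1* (79.8 ± 7.40), *Hspb2* (62.1 ± 8.57), *Smyd1* (49.2 ± 6.68) and *Unc45b* (37.8 ± 7.60). *Hspb3* (5.21 ± 1.49), *Unc45a* (4.08 ± 0.27) and *Hspb7* (2.49 ± 0.85) were the lowest. Of these neighbours *Hspb8* and *Hspb1*, *Smyd1* and *Unc45b*, and *Hspb3* and *Unc45a* overlapped between their libraries. In KO, *Hsp90aa1* led (160.4 ± 30.9), followed by *Cryab* (116.1 ± 33.4), *Hspb8* (79.7 ± 30.5) and *Hspb1* (54.7 ± 19.1), each overlapping the one before it. *Unc45b* (18.4 ± 3.60), *Hspb2* (17.9 ± 9.07) and *Smyd1* (16.7 ± 3.90) followed with overlap, then *Hspb7* (6.66 ± 5.51), *Unc45a* (5.55 ± 1.29) and *Hspb3* (3.0 ± 0.69).

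Of 17 tested genes of the HSP70 system edgeR called 3, beside 22.7% of all genes tested: *Dnajb1* (0.81 ± 0.17, edgeR adjusted p = 0.0172) and *Dnajb5* (0.64 ± 0.12, adjusted p = 0.0121) rose, and *Dnaja4* fell (−1.31 ± 0.20, adjusted p = 0.00527). All 3 encode J-domain proteins, which hand clients to HSP70. *Dnajb1* stood at 69.8, 99.6 and 65.3 CPM in KO and 47.0, 44.1 and 43.2 CPM in WT. *Dnaja4* stood at 11.9, 9.94 and 8.20 CPM in KO and 28.8, 20.9 and 24.6 CPM in WT. The genotypes did not overlap in either. The number called was 1 without WT1, where 933 of all genes were called, and 5 without KO1, where 30.6% of all genes were called. The HSP70 genes themselves, *Hspa8* and the inducible *Hspa1b* among them, were not called by edgeR, and DESeq2 called the mitochondrial *Hspa9* lower (−0.54, adjusted p = 0.0286).

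Of the 12 other HSP90 paralogs and co-chaperones tested, 2 fell and 0 rose in edgeR, beside 10.6% and 12.1% of all genes tested: *Hsp90b1* of the endoplasmic reticulum (−0.61 ± 0.18, edgeR adjusted p = 0.0479) and *Trap1* of mitochondria (−0.54 ± 0.14, adjusted p = 0.0302). *Hsp90aa1* was thus the only called HSP90 gene that rose. Of the 8 subunits of the TRiC chaperonin, which folds actin and tubulin, *Cct4* (−0.57 ± 0.16, adjusted p = 0.0390) and *Cct7* (−0.52 ± 0.14, adjusted p = 0.0324) fell, again beside 10.6% of all genes. Both lists had 0 calls in edgeR without KO3, WT1, WT2 or WT3, where 2088, 933, 2100 and 1288 of all genes were called. TRiC had 1 without KO2 (2695 of all genes). The median log2 fold change was −0.20 over the HSP90 list, −0.24 over TRiC and 0.02 over the HSP70 list.

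The heat shock factor list held *Hsf1*, *Hsf2* and *Hsf4*, which bind heat shock elements, and *Hsbp1*, which encodes a heat shock factor binding protein. It gave 2 falls among 4 genes in edgeR, beside 10.6% of all genes tested. *Hsf1* stood at 53.8, 63.3 and 54.0 CPM in KO and 74.7, 80.3 and 72.7 CPM in WT (−0.41 ± 0.12, edgeR adjusted p = 0.0445, and 0.0507 in DESeq2). *Hsf2* stood at 41.1, 38.9 and 39.4 CPM in KO and 57.4, 54.0 and 58.8 CPM in WT (−0.51 ± 0.11, adjusted p = 0.0164). The genotypes did not overlap in either gene. Without WT1 or WT3 edgeR called 0 of the 4 (933 and 1288 of all genes). It called 1 without KO1 (30.6% of all genes), KO3 or WT2 (2088 and 2100 of all genes). No gene of the 7 in chaperone-assisted selective autophagy was called by edgeR (22.7% of all genes tested) or by DESeq2 (23.9%), with 1 (*Stub1*, a ubiquitin ligase, −0.46 ± 0.16) at an unadjusted p under 0.05 in edgeR (39.0% of all genes). The list's median was −0.05, and edgeR called 1 of its genes without KO2 (2695 of all genes). Of the other small heat shock protein genes *Hspb6* alone could be tested (0.39 ± 0.26, edgeR adjusted p = 0.311), and *Cryaa*, *Hspb9* and *Odf1* were at or near 0.

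Of the other SMYD family genes and *Naca*, 5 were tested and 1 was called lower, beside 10.6% of all genes: *Smyd3* fell (−0.77 ± 0.18, edgeR adjusted p = 0.0223), from 24.0, 18.1 and 18.4 CPM in WT to 10.6, 13.6 and 11.2 CPM in KO. *Naca*, whose muscle isoform is a partner of SMYD1, had −0.31 ± 0.18 (adjusted p = 0.238). Of the 10 myoblast and myotube markers 3 were called, beside 22.7% of all genes tested: *Myod1* (0.99 ± 0.20, adjusted p = 0.0141) and *Cdh15* (0.70 ± 0.17, adjusted p = 0.0258) rose and *Myf5* fell (−1.503 ± 0.39, adjusted p = 0.0303). The *Smyd3* call was lost without KO3, WT1 or WT3. The muscle markers called were 8 without KO1 (30.6% of all genes) and 1 without KO3 (2088 of all genes). Without WT1 or WT3 they were 0 (933 and 1288 of all genes). *Kdr*, an endothelial marker, was called lower at levels of at most 1.37 CPM.

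The genes whose levels ran most closely with 3 of the chaperones were found among 5464 genes whose mean log2 CPM was 5 or more, by Pearson's r of log2 CPM over the 6 libraries. *Unc45b* ran closest with *Tmem9* (r = 0.9996), *Nmrk2* (0.998) and *Afg3l2* (0.997). *Smyd1* ran closest with *Higd2a*, *Vdac1* and *Cs* (r of 0.996 to 0.997), and *Cryab* with *Cdkn1a*, *Gm2830* and *Neu1* (0.997). An r of at least 0.95 was reached by 252 genes for *Unc45b*, 369 for *Smyd1* and 229 for *Cryab*. These values are descriptions: the 6 libraries fall into the 2 genotypes, so genes that differ in the same direction tend to correlate. The spread within a genotype also enters r. The 3 genes named for *Cryab* were not called by edgeR (adjusted p of 0.0966 to 0.104).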

How the data were processed

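Libraries of ribosome-depleted RNA (3 KO, 3 WT) were sequenced. The authors aligned reads with STAR and deposited raw gene counts, and StringTie TPM for each library (per the labels and the paper's methods; FastQC, Trim Galore, featureCounts and Salmon are also named in the submitters' processing notes). Those notes name mm9 and the methods GRCm39, whereas 8 of the 10 genes have the start and end of GENCODE vM21 (GRCm38), used here. TPM rows that shared a gene ID were summed. Counts were TMM-scaled, filtered with filterByExpr and tested with edgeR 4.0.16 (quasi-likelihood, two-sided, Benjamini-Hochberg over 14828 genes, threshold 0.05). TPM were tested with limma 3.58.1 on log2(TPM + 1), for 11691 genes with TPM not under 1 in 3 or more libraries; that scale understates changes of low genes. DESeq2 1.42.0, other scalings and filters, a replicate block and leaving out each library were alternatives. Libraries held at least 33605258 counts; *Hspb3*, the lowest of the 10 genes, had 103 to 295 counts per library, where counting error is a larger part of the spread. Nothing in the labels gives separate cultures or batches, so p-values measure the spread between these libraries. The steps were tested on simulated data for KO against WT: edgeR recovered 91.0% of 200 changed genes, with 17 other calls among 14548 genes tested. DESeq2 recovered 97%, with 64 other calls among 14828 genes, and limma 89.5%, with 21 among 12322. How recovery varies with the size of a fold change was not tested, and recovery by limma on TPM was not tested. Of a list, called genes were named, at most 4; 1 gene of the HSP90 list is not reported here. The genes followed and all lists were chosen with earlier results of these data known. BLAST+ 2.17.0 found near copies. Splicing was not analysed here.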

Additional observations from a re-analysis of the deposited data

How the results depend on the processing

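No fold change of the 10 genes changed sign under any alternative run. *Smyd1* and *Hsp90aa1* were called under each of their alternatives, in counts and in TPM. The cause of the other changes was not tested. With DESeq2 in place of edgeR, *Cryab* (−0.78), *Hspb1* (−0.85) and *Hspb3* (−0.90) gained a call, and 7 of the 10 genes were called (23.9% of all genes). DESeq2 also called 1 heat shock factor, 2 myosin heavy chains and 1 bone marker. Without the filter on low counts 8 of the 10 were called, among them *Cryab* (−0.78), *Hspb1* (−0.85), *Hspb3* (−0.90) and *Hspb7* (1.43). Over all genes 4538 of 30252 were called without that filter, against 3361 of 14828 with it. *Cryab* (−0.80) and *Hspb1* (−0.89) were also called by limma on TPM, and *Hspb1* with chromosome medians removed (−0.98). Without the filter on TPM, *Unc45b* (−0.995), *Cryab* (−0.80), *Hspb1* (−0.89) and *Hspb2* (−1.83) lost their calls in TPM.

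When 1 library at a time was left out, the fold changes from counts (log2) ran from 0.36 to 0.60 for *Unc45a*, −1.20 to −0.81 for *Unc45b*, −1.11 to −0.54 for *Cryab*, −1.23 to −0.59 for *Hspb1*, −2.36 to −1.45 for *Hspb2*, −1.11 to −0.69 for *Hspb3*, 0.39 to 1.86 for *Hspb7* and −0.84 to −0.12 for *Hspb8*. In log2(TPM + 1) they ran from 0.25 to 0.52, −1.15 to −0.87, −1.02 to −0.66, −1.16 to −0.72, −2.20 to −1.57, −0.83 to −0.48, 0.36 to 1.4 and −0.75 to −0.24 in the same order. Of the 10 genes 2 (without WT1 or WT3) to 8 (without KO1) were called in counts and 3 to 8 in TPM. Over all genes 933 (without WT1) to 4712 (without KO1) were called, with 2088 without KO3, 2100 without WT2 and 1288 without WT3. The calls in the lists ran from 1 to 5 in the HSP70 system, 0 to 2 in the HSP90 list, 0 to 1 in selective autophagy, 0 to 2 in the heat shock factors and in TRiC, 1 to 7 in the myosin heavy chains, 0 to 1 in the SMYD list and the endothelial markers, and 0 to 8 in the muscle markers. The counts of calls in the other lists did not move.

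The replicate numbers do not pair the samples: the deviations of same-numbered KO and WT libraries from their group means correlated at 0.18, −0.12 and −0.12 over 10972 genes. With the replicate number as a block, 5 of the 10 genes were called in counts (2520 of all genes, against 3361 without the block). *Hspb1* (−0.90) gained a call in counts and *Hspb7* (0.92) in TPM, and the block changed no other call of the 10 genes. A missed threshold does not show that the genotypes are alike.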
